A study of Mus musculus with 6 samples.

Results

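The Hox cluster genes are the genes whose symbol is Hox, a cluster letter from a to d and a number, and 39 of the 45777 genes in the deposited table matched that name pattern. They encode homeodomain transcription factors that are laid out in 4 clusters, and genes with the same number in different clusters are paralogues. In the embryo a gene's place in its cluster follows the level of the body axis where it is switched on, so low numbers mark the hindbrain and neck and high numbers the lumbar, sacral and tail levels. Many neurons of the spinal cord and its ganglia keep a Hox code into adult life. Hox proteins bind DNA together with the TALE homeodomain partners of the Pbx and Meis families, Polycomb complexes hold the clusters silent, and retinoic acid opens their anterior ends.

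Levels were measured by RNA sequencing of 6 cultures of dorsal root ganglion (DRG) neurons, the sensory neurons beside the spinal cord. Cultures from wild-type C57BL/6 mice labelled female and 8 weeks old were kept for 12 hours with oncomodulin (ONCM), a calcium-binding protein of the parvalbumin family, added as recombinant protein at 100 ng/ml (3 samples), or for 12 hours with PBS as the negative control (3 samples). Samples carry the label biological replicate, with no word on the spinal levels or on which animals or cultures each came from, so how far the spread behind the p-values is technical is not known. The comparison asked how Hox transcripts stood in cultures with oncomodulin against cultures with PBS.

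The libraries held 53770820 to 60291315 counts with ONCM and 55920700 to 64477014 counts with PBS. Defining DRG neuron markers were present, with all 10 of 10 tested and a sum of 12004 to 12661 counts scaled to library size (CPM) with ONCM and 11691 to 11882 CPM with PBS. Of the 10, 2 rose (Tubb3 and Uchl1), 6 fell (Isl1, Pou4f1, Scn9a, Snap25, Rbfox3 and Nefh) and 2 did not pass, with a median log2 fold change of -0.38. Beside such counts of markers, 23.9% of all 20354 tested genes rose and 24.4% fell. Markers of other cells were present too, and none was at 0 in all libraries. Macrophage markers summed to 83.7 ± 1.34 CPM with ONCM and 28.4 ± 1.39 CPM with PBS (SD, n = 3 each, 7 of 7 markers rose), and fibroblast markers to 438 ± 9.79 CPM with ONCM and 297 ± 2.29 CPM with PBS (4 of 6 rose). Mural cell markers summed to 103 ± 0.824 CPM with ONCM and 141 ± 0.806 CPM with PBS (3 of 4 tested fell). The sums of satellite glia and Schwann cell markers differed less. Satellite glia had 2020 ± 78.2 CPM with ONCM and 1913 ± 32.5 CPM with PBS (2 of 6 rose). Schwann cells had 3590 ± 88.0 CPM with ONCM and 3440 ± 38.4 CPM with PBS (of 7, 3 rose and 1 fell). Astrocyte markers summed to 48.8 ± 0.739 CPM with ONCM and 18.2 ± 1.16 CPM with PBS (of 4, 2 rose and 1 fell). Aldh1l1 made up 36.7 CPM of that sum with ONCM and 7.52 CPM with PBS. Endothelial markers summed to 148 ± 3.69 CPM with ONCM and 128 ± 2.14 CPM with PBS (3 of 6 rose). Motor neuron markers of the spinal cord summed to 0.838 CPM with ONCM and 0.596 CPM with PBS, which is near 0. Xist, the RNA of the inactive X chromosome, was 413 to 513 CPM with ONCM and 0.485 to 0.588 CPM with PBS. The Y-linked Ddx3y was 15.1 to 16.9 CPM with ONCM and 58.1 to 62.4 CPM with PBS. Y-linked transcripts in every library, and the near absence of Xist with PBS, go against the label female. All Hox genes lie on autosomes, but sex or source of the cells and the treatment cannot be told apart in any Hox result, and the part played by neuronal and other cell markers was not tested. In bulk samples fewer cells of a type and less RNA per cell cannot be told apart.

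Hox transcripts were mostly lower with ONCM. The deepest fall was that of the anterior gene Hoxd1, and most of the other falls were of central and posterior genes. Of the 39 genes 30 had enough counts to be tested, and by edgeR's quasi-likelihood test 15 fell, 2 rose and 13 did not pass at an adjusted p of 0.05. Falls were thus 50% of the tested Hox genes, against 24.4% of all 20354 tested genes, and rises 6.67%, against 23.9%. Calls in either direction took 48.3% of all genes. The median log2 fold change of the 30 genes was -0.26, against 0 for all tested genes, and 25 of 30 values were negative. The DRG neuron markers went both ways. Of the 10, 6 fell and the median was -0.38, while Tubb3 rose by 0.80 and Uchl1 by 0.24. Their summed level was higher in every ONCM library than in any PBS library, with means of 12234 CPM and 11755 CPM. Tubb3 alone averaged 3618 CPM with ONCM and 2074 CPM with PBS, a wider gap than that of the sum. In CPM the groups did not overlap for 17 of the 30, 15 of them lower and 2 higher with ONCM, where the share over all tested genes was 28.0% lower and 27.6% higher. DESeq2's Wald test called 9 falls and 1 rise.

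**Figure D1:**
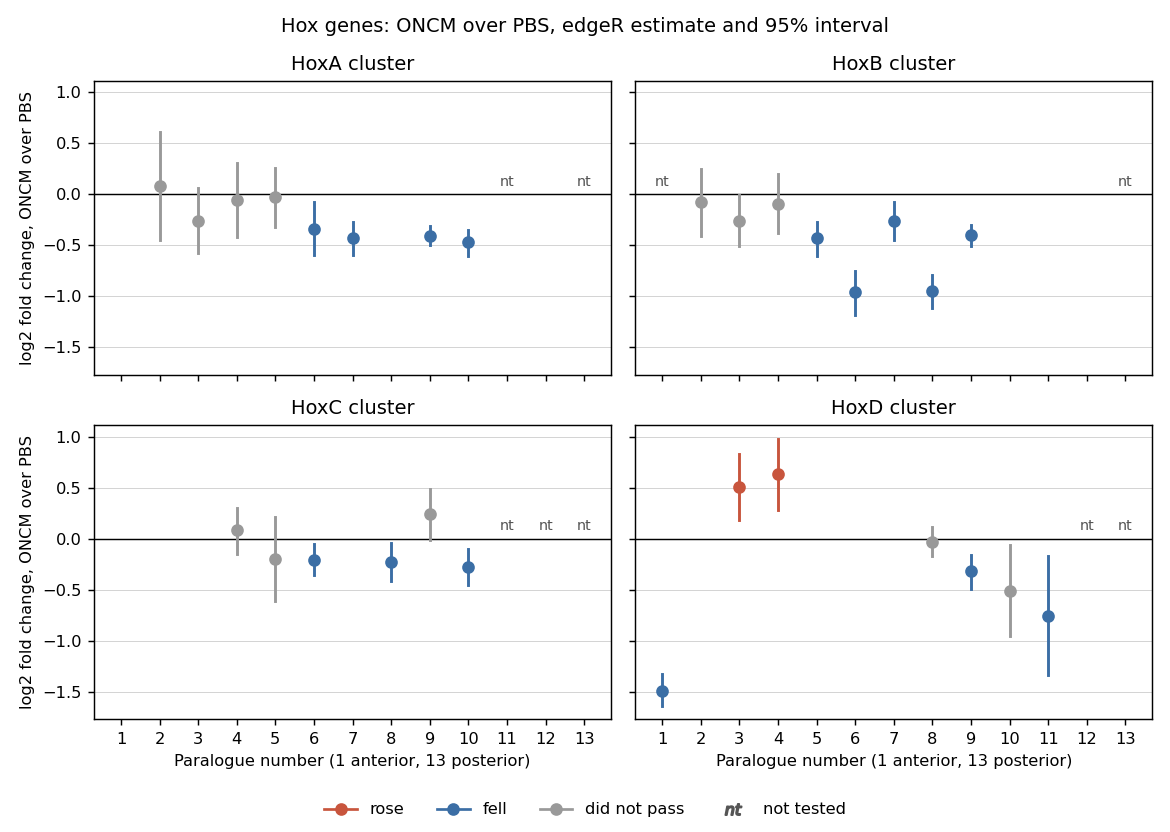
Log2 fold change of ONCM over PBS from edgeR (vertical axis) for Hox genes by paralogue number (horizontal axis), 1 panel per cluster. Points are estimates from 3 libraries per group, lines are 95% intervals, colours give the call and nt marks genes with too few counts. Hoxd1 lies lowest at -1.49, Hoxb6 and Hoxb8 lie near -0.96, and Hoxd3 and Hoxd4 are the genes that rose.

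Summed over the 39 genes, Hox transcripts came to 199, 202 and 209 TPM (the deposited level per length of transcript) in the ONCM libraries, against 281, 274 and 285 TPM in the PBS libraries. Every ONCM library was below every PBS library. The mean was 203 ± 4.88 TPM with ONCM and 280 ± 5.38 TPM with PBS (SD, n = 3 each), a ratio of 0.726. In CPM the ratio was 0.764. By cluster the TPM ratio differed and was 0.750 for HoxA, 0.666 for HoxB, 0.881 for HoxC and 0.693 for HoxD. The CPM ratios were higher, at 0.771 for HoxA, 0.704 for HoxB, 0.907 for HoxC and 0.748 for HoxD. HoxC therefore made up 15.9 ± 0.787% of Hox TPM with ONCM and 13.1 ± 0.133% with PBS, and HoxB 31.9 ± 0.703% with ONCM and 34.7 ± 0.565% with PBS. These sums over members are descriptions without a test.

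With PBS, transcript levels per length were highest for Hoxa9 (31.2 ± 0.847 TPM), Hoxb9 (24.2 ± 0.961 TPM), Hoxd1 (22.8 ± 1.15 TPM) and Hoxa10 (19.8 ± 0.437 TPM). With ONCM Hoxa9 (22.5 ± 0.58 TPM) and Hoxb9 (17.5 ± 0.355 TPM) still led, Hoxd8 (15.8 ± 0.751 TPM) came next, and Hoxd1 had 7.79 ± 0.421 TPM. Summed over members, paralogue group 9 stood highest, at 55.7 ± 0.753 TPM with ONCM and 73.5 ± 2.07 TPM with PBS. That group has 4 members, against 2 in group 7, which held 25.1 ± 1.63 TPM with ONCM and 33.9 ± 2.52 TPM with PBS. Group 10 held 22.5 ± 1.01 TPM with ONCM and 30.8 ± 0.268 TPM with PBS, group 11 held 0.523 TPM with ONCM and 1.03 TPM with PBS, and groups 12 and 13 stayed at or under 0.313 TPM in every library.

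**Figure D2:**
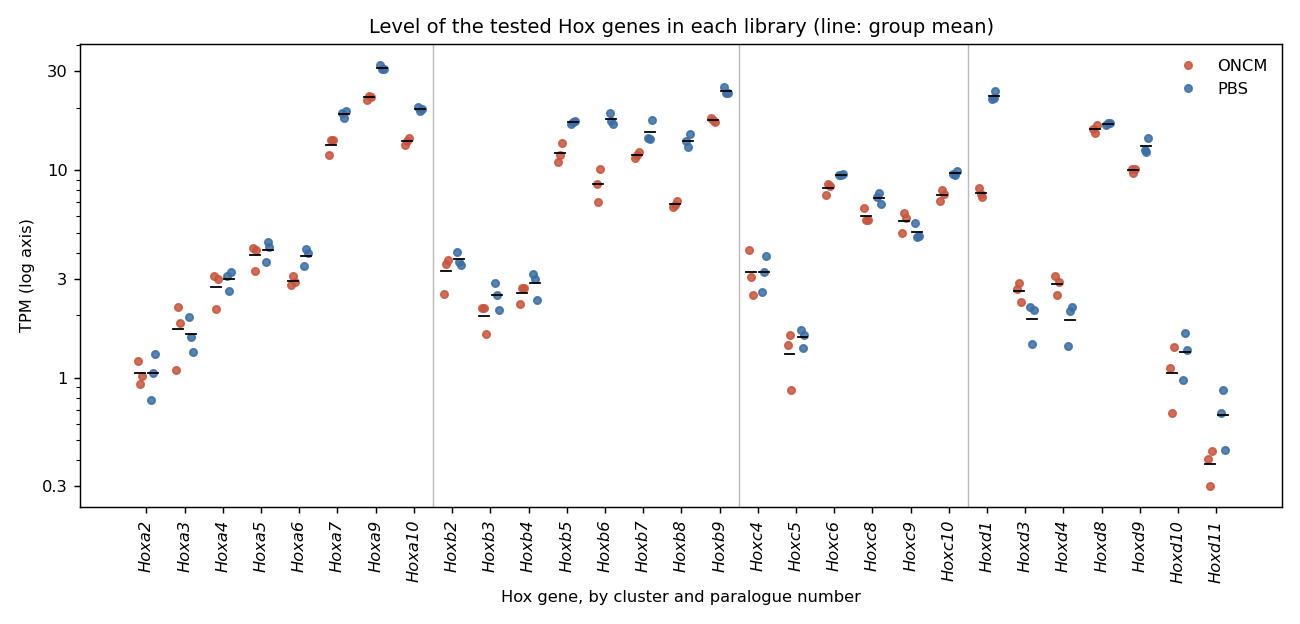
TPM on a log axis (vertical) in each library for tested Hox genes by cluster and paralogue number (horizontal), ONCM left of PBS, with group means as black lines. The 3 ONCM libraries lie clear of the 3 PBS libraries for Hoxd1, Hoxb8, Hoxa9 and Hoxb9, and intermingle for Hoxa2 to Hoxa5 and Hoxd8.

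The anterior end of HoxD held both the deepest fall and the rises. Hoxd1, which in mouse takes part in wiring pain-sensing neurons to their targets (GRCm38 chromosome 2, 74762980 to 74765142, plus strand), had 8.25, 7.69 and 7.42 TPM in the ONCM libraries, against 22.0, 22.3 and 24.1 TPM in the PBS libraries. No ONCM library came near the lowest PBS library. The log2 fold change was -1.49 (SE 0.07, edgeR adjusted p = 7.88e-12), which leaves 35.6% of the PBS level. Haglr, a long noncoding RNA whose RefSeq gene ends 83 bases before Hoxd1 and runs on the opposite strand, fell beside it, with 93, 127 and 138 counts in the ONCM libraries, against 302, 293 and 343 counts in the PBS libraries. Its log2 fold change was -1.32 (SE 0.14, adjusted p = 2.09e-07). Hoxd1 shared no exon base with another gene in the GENCODE M21 annotation.

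The promoter window of Hoxd1 is shown because it also holds the start of Haglr, so that the pair that fell together starts in 1 stretch of DNA. Windows run from 250 bases before to 50 bases after the start of the RefSeq transcript (assembly GRCm38.p6, the assembly of mm10), are written 5′ to 3′ on the strand of the gene, and carry motif matches in capitals. The window below is chr2:74762730-74763029, plus strand, with 69.7% G or C and 29 CG pairs, and the capitals mark a CCAAT box read on the opposite strand.
Hoxd1: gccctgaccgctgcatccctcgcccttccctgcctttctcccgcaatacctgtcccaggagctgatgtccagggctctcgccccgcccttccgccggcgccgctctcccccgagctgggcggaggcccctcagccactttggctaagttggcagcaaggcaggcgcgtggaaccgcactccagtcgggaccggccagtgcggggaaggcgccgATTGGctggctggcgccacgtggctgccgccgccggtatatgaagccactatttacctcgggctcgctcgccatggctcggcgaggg

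Hoxd3 and Hoxd4, next to Hoxd1 in the cluster, went the other way. Hoxd4, an anterior gene of the hindbrain and neck code (chromosome 2, 74721978 to 74729160), had 3.08, 2.50 and 2.89 TPM in the ONCM libraries, against 1.42, 2.09 and 2.20 TPM in the PBS libraries. The lowest ONCM value lay just above the highest PBS value. The log2 fold change was 0.63 (SE 0.16, adjusted p = 0.00385). Hoxd3 (chromosome 2, 74711993 to 74748271), a paralogue of the thymus and neck patterning gene Hoxa3, had 2.68, 2.86 and 2.32 TPM with ONCM, against 2.19, 1.45 and 2.13 TPM with PBS, and a log2 fold change of 0.51 (SE 0.15, adjusted p = 0.0105). Its call was lost in DESeq2 (adjusted p = 0.0573), on both log2 TPM scales (adjusted p = 0.0596 and 0.0688) and without PBS replicate 2 (log2 fold change 0.34, adjusted p = 0.0691) or ONCM replicate 2 (adjusted p = 0.0504). Hoxd3 and Hoxd4 share 388 exon bases on the same strand in GENCODE M21, the read-through gene Gm28230 covers 53.1% and 39.1% of their exon bases, and the antisense Hoxd3os1 overlaps 347 exon bases of each, so that their separate values are uncertain.

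**Figure D3:**
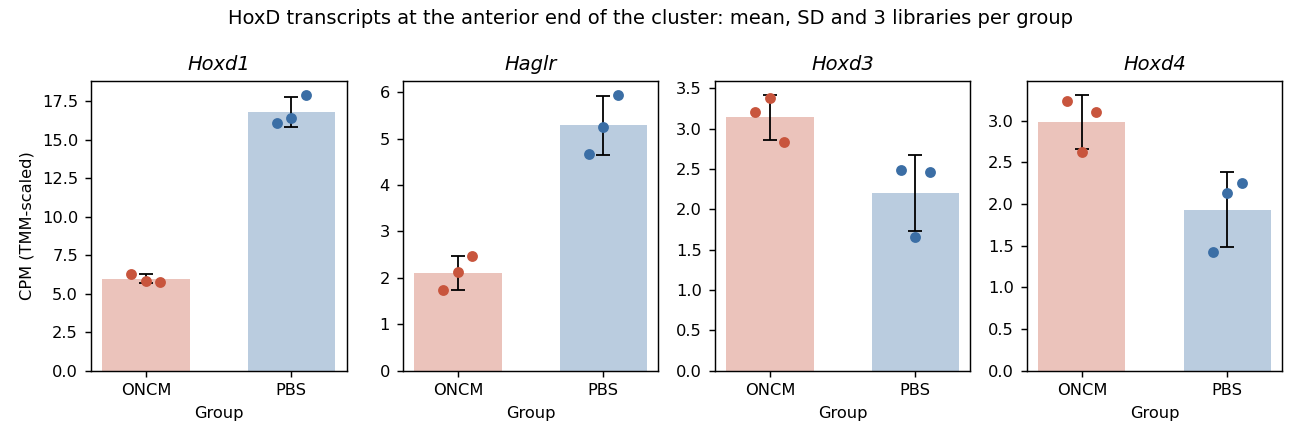
CPM (vertical axis) of Hoxd1, Haglr, Hoxd3 and Hoxd4 in ONCM and PBS libraries (horizontal axis, 1 panel per gene), with bars for means, error bars for SD and points for the 3 libraries of each group. Hoxd1 averaged 5.97 CPM with ONCM and 16.8 CPM with PBS and Haglr 2.11 CPM with ONCM and 5.28 CPM with PBS, while Hoxd3 and Hoxd4 were higher with ONCM.

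Windows of Hoxd3 and Hoxd4 are given for comparison with Hoxd1, since these neighbours moved in the opposite direction. Hoxd3 lies at chr2:74711743-74712042 and Hoxd4 at chr2:74721728-74722027, both on the plus strand. G or C made up 54% of the Hoxd3 window, with 20 CG pairs, and 39.7% of the Hoxd4 window, with 4 CG pairs. Capitals in Hoxd3 mark a CCAAT box on the opposite strand, and those in Hoxd4 mark 2 CCAAT boxes, a TATAAA box on the opposite strand and 1 STAT-type TTCNNNGAA match.
Hoxd3: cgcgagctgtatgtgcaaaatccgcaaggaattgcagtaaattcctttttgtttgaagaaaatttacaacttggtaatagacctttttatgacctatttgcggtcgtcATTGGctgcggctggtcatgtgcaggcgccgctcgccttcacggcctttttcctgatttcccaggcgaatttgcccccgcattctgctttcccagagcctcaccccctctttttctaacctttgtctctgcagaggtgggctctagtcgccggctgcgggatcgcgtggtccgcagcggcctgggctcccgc
Hoxd4: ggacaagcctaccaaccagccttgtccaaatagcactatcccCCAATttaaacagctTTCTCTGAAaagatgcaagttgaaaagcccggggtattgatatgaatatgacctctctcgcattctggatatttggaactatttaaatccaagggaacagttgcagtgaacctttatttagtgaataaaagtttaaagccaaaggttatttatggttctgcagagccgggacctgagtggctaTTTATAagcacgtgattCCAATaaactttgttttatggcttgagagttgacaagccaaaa

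None of the other genes of paralogue groups 2 and 3 passed. The log2 fold change of Hoxa2, a selector of the second pharyngeal arch, was 0.08 (95% interval -0.45 to 0.61), Hoxa3 had -0.26 (-0.58 to 0.06), Hoxb2 had -0.08 (-0.41 to 0.25) and Hoxb3 had -0.26 (-0.51 to -0.01, adjusted p = 0.0857). Exons of the antisense RNA Hoxb3os cover 52.9% of the Hoxb3 exon bases and 27.3% of those of Hoxb2. Hoxb3os itself rose (log2 fold change 0.65, SE 0.26, adjusted p = 0.0465), from few reads: 45, 48 and 35 counts with ONCM, against 35, 27 and 24 counts with PBS. Hoxb1, an anterior gene of the hindbrain, had no count in any of the 6 libraries.

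Groups 4 and 5 showed 1 fall besides the rise of Hoxd4. Hoxb5, which acts in enteric and vagal crest cells, had 11.0, 11.9 and 13.5 TPM with ONCM, against 16.8, 17.2 and 17.3 TPM with PBS, and its log2 fold change was -0.43 (SE 0.08, adjusted p = 1.65e-04). Hoxa4, Hoxa5, Hoxb4, Hoxc4 and Hoxc5 did not pass, with log2 fold changes from -0.20 for Hoxc5 to 0.08 for Hoxc4. Hoxa5, required in mouse for phrenic motor neurons, was at 3.89 ± 0.537 TPM with ONCM and 4.13 ± 0.452 TPM with PBS (-0.03, 95% interval -0.32 to 0.26).

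Groups 6 to 8, the code of the lower neck and chest, fell in 7 of 8 genes, where 24.4% of all tested genes fell. Hoxb8, whose loss in mouse causes excessive grooming and altered pain sensing (chromosome 11, 96279401 to 96285325), had 6.69, 6.82 and 7.11 TPM with ONCM, against 13.9, 13 and 15.0 TPM with PBS. The ONCM values lay close together at about the level of 51.7% of PBS that the test estimated (log2 fold change -0.95, SE 0.07, adjusted p = 5.26e-09). Hoxb6 on the same chromosome (96292814 to 96301569) had 8.64, 7.02 and 10.2 TPM with ONCM, against 19.0, 17.3 and 16.8 TPM with PBS, and a log2 fold change of -0.96 (SE 0.10, adjusted p = 3.21e-07). Hoxb7, which lies between this pair, had 11.5, 11.8 and 12.3 TPM with ONCM, against 14.3, 14.1 and 17.4 TPM with PBS, with a smaller log2 fold change of -0.26 (95% interval -0.45 to -0.08, adjusted p = 0.0192). The intervals of Hoxb6 (-1.18 to -0.75) and Hoxb8 (-1.11 to -0.79) lie wholly below that of Hoxb7.

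The Hoxb8 window is shown as that of the second deepest level of fall outside HoxD, at chr11:96281655-96281954 on the plus strand. This window of the RefSeq table lies inside the gene coordinates given above, not at their start. It held 42.3% G or C and 13 CG pairs, and capitals mark 2 TATAAA matches on the opposite strand and a CCAAT box.
Hoxb8: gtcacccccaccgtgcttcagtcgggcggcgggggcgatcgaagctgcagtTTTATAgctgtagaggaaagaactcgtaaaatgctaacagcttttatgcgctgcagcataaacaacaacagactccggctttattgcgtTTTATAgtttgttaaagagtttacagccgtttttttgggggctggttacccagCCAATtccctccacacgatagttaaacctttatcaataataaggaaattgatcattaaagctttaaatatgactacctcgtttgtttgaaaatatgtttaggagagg

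RefSeq windows were at hand for 22 of the 39 Hox genes (24 windows). A CCAAT box (CCAAT on either strand) was present in 15 of the 24, or 62.5%, against 37.4% of all 32851 promoter windows of the same length. TATAAA was in 4 of 24 (16.7%, against 13.6% of all windows), the HOX-PBX letters TGATTNAT in 2 of 24 (Hoxa2 and Hoxd11, 8.33%, against 3.22%) and TTCNNNGAA in 1 of 24 (4.17%, against 8.3%). Both strands were searched and no 2 matches overlap in the windows printed here. Such matches describe letters and are not sites.

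Hoxa7 had 11.8, 14 and 14 TPM with ONCM, against 18.8, 17.8 and 19.3 TPM with PBS, a log2 fold change of -0.43 (SE 0.08, adjusted p = 1.19e-04). Mira, a noncoding RNA between Hoxa6 and Hoxa7, fell by 0.39 on the log2 scale (SE 0.09, adjusted p = 0.00218). Smaller falls were those of Hoxa6 (-0.34, adjusted p = 0.0311), Hoxc6 (-0.21, adjusted p = 0.0251) and Hoxc8 (-0.23, adjusted p = 0.0428), the last a gene of forelimb motor pools. Their calls depended on single libraries. Hoxa6 was lost without ONCM replicate 1 or 3 or PBS replicate 2 or 3 (adjusted p = 0.0914, 0.0590, 0.118 and 0.0827), Hoxc6 without replicate 1 of either group (ONCM adjusted p = 0.117, PBS adjusted p = 0.104) and Hoxc8 without ONCM replicate 2 or 3 or PBS replicate 1 or 2 (adjusted p = 0.152, 0.101, 0.0934 and 0.138). Hoxb7 was lost without ONCM replicate 1 or PBS replicate 2 or 3 (adjusted p = 0.0665, 0.0677 and 0.0934), and DESeq2 called none of these 4. Hoxc8 was also lost with the replicate number as a block (adjusted p = 0.0547). Hoxd8 was the exception in these groups, with 15.8, 15.1 and 16.6 TPM with ONCM, against 16.5, 16.9 and 17 TPM with PBS (log2 fold change -0.03, 95% interval -0.17 to 0.11).

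In groups 9 and 10, the code of the lower chest and lumbar levels, 5 of 7 genes fell, against 24.4% of all tested genes. Hoxa9 (chromosome 6, 52223097 to 52227370) had 21.8, 22.9 and 22.7 TPM with ONCM, against 32.2, 30.7 and 30.7 TPM with PBS, a log2 fold change of -0.41 (SE 0.04, adjusted p = 4.47e-07). Hoxb9 had 17.8, 17.5 and 17.1 TPM with ONCM, against 25.3, 23.7 and 23.5 TPM with PBS, a log2 fold change of -0.40 (SE 0.05, adjusted p = 2.51e-06). Hoxa10, which with its paralogues sets lumbar motor neuron identity in mouse, had 13.2, 13.8 and 14.4 TPM with ONCM, against 20.3, 19.4 and 19.8 TPM with PBS (-0.47, SE 0.06, adjusted p = 2.52e-06). These 3 genes kept 72.0% to 75.5% of their PBS level, and their groups were far apart relative to the spread within each.

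Hoxd9 and Hoxc10 fell less, by 0.32 (SE 0.08, adjusted p = 0.00224) and 0.28 (SE 0.08, adjusted p = 0.0105) on the log2 scale. The Hoxc10 call was lost in DESeq2 (adjusted p = 0.0608) and without ONCM replicate 1 (adjusted p = 0.0514), and 166 of its exon bases are shared with Hoxc5. Hoxc9, which marks thoracic motor columns in mouse, had 5, 6.26 and 5.91 TPM with ONCM, against 5.59, 4.76 and 4.82 TPM with PBS, and its log2 fold change of 0.24 did not pass (adjusted p = 0.109). Without ONCM replicate 1 it passed (0.33, adjusted p = 0.0429). Hoxd10 had -0.51 (adjusted p = 0.0571) and passed without ONCM replicate 3 (adjusted p = 0.0390) or PBS replicate 1 (adjusted p = 0.0159).

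Near the posterior ends counts ran out. Hoxd11, a limb and kidney patterning gene, had 31, 25 and 35 counts with ONCM, against 58, 68 and 36 counts with PBS, so that PBS replicate 3 lay beside the ONCM libraries. Its log2 fold change of -0.76 (SE 0.28, adjusted p = 0.0316) was lost in DESeq2 and on the TPM scale, with the replicate block (adjusted p = 0.0601) and without ONCM replicate 1 or 2 or PBS replicate 1 or 2 (adjusted p = 0.0538, 0.133, 0.0615 and 0.190). The other genes of groups 11 to 13 were too low to test. Hoxa11 had 0, 8 and 16 counts with ONCM, against 11, 9 and 7 with PBS, and Hoxc11 had 0 counts in each ONCM library, against 7, 2 and 5 with PBS. Hotair, the antisense noncoding RNA between Hoxc11 and Hoxc12, also had 0 counts in each ONCM library, against 2, 8 and 8 with PBS. Hoxc13, a gene of hair and nails, had 11, 5 and 6 counts with ONCM, against 0, 0 and 2 with PBS. Hoxd13, a digit gene, had 4, 2 and 6 counts with ONCM, against 0 in each PBS library. Hoxb13 and Hoxc12 had 2 counts each in ONCM replicate 1 and none elsewhere, and Hoxa13 and Hoxd12 had none in any library. A library with 0 counts allows up to 3 counts, or 0.0465 to 0.0558 CPM, for counting error only.

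Paralogue numbers were divided after the values were seen, and over all tested genes 24.4% fell and 23.9% rose. Of the 16 tested genes of groups 6 to 13, 13 fell (81.2%) and none rose, with a median log2 fold change of -0.37. Among these falls DESeq2 did not call Hoxa6, Hoxb7, Hoxc6, Hoxc8, Hoxc10 and Hoxd11. Of the 14 tested genes of groups 1 to 5, 2 fell (14.3%) and 2 rose (14.3%), with a median of -0.08. DESeq2 did not call Hoxd3 among these rises. Precision differed between the 2 sets of groups, since low genes have wider intervals. Spearman's rho of SE with PBS TPM was -0.93 across the 30 genes, which share libraries. Across the same genes the rho of log2 fold change was -0.43 with paralogue number and -0.47 with PBS TPM. PBS TPM and paralogue number themselves had a rho of 0.32. Whether the falls followed level or paralogue number was not tested. Of the 13 genes that did not pass, 10 had 95% intervals that excluded a 1.5-fold change in either direction. The exceptions were Hoxd10, Hoxa2 and Hoxc5. Called falls such as those of Hoxa9 (-0.41) and Hoxb7 (-0.26) were also smaller than 1.5-fold. This bound therefore does not separate the genes that did not pass from those that fell. Summed levels gave another order, because of Hoxd1. Groups 1 to 3 summed to 22.2 ± 1.06 TPM with ONCM and 37.8 ± 1.24 TPM with PBS (SD, n = 3 each, ratio 0.585), against ratios of 0.747 for groups 4 to 8 and 0.749 for groups 9 to 13. Groups 9 to 13 made up 38.8 ± 0.436% of Hox TPM with ONCM and 37.6 ± 0.686% with PBS. Without Hoxd1 in the sum that share was 40.4 ± 0.499% with ONCM and 41.0 ± 0.607% with PBS, and the groups overlapped. In CPM the share without Hoxd1 was 44.6 ± 0.131% with ONCM and 45.9 ± 0.506% with PBS, with no overlap. In CPM with Hoxd1 the share was 43.2 ± 0.0379% with ONCM and 42.8 ± 0.584% with PBS, and the groups overlapped. On both scales the mean share was thus higher with ONCM when Hoxd1 was counted and lower when it was left out. Only the TPM share with Hoxd1 and the CPM share without it separated the groups.

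**Figure D4:**
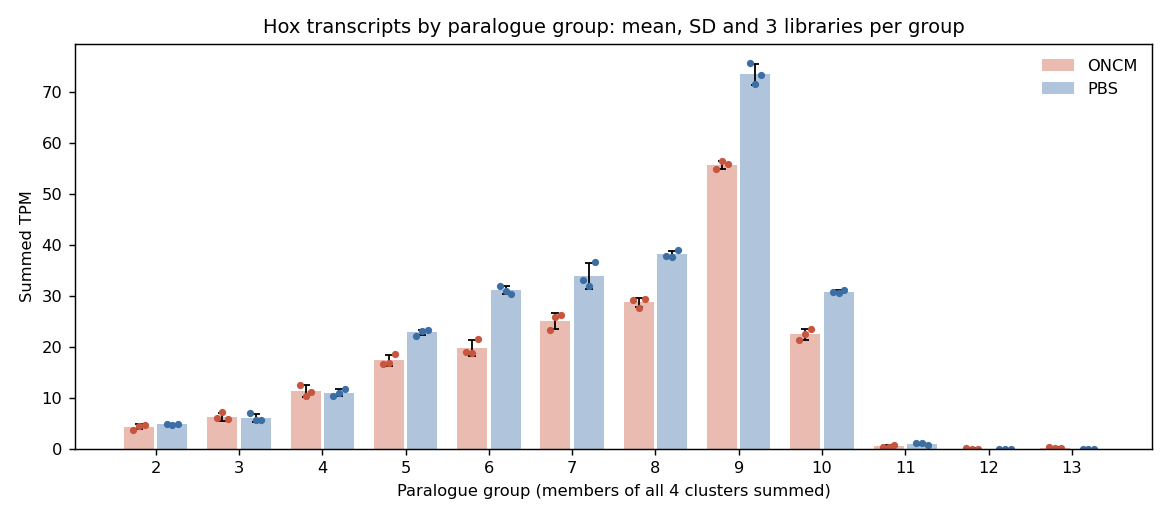
TPM summed over the 4 clusters (vertical axis) for paralogue groups 2 to 13 (horizontal axis; group 1, which holds Hoxd1, is not drawn), ONCM left of PBS, with bars for means, error bars for SD and points for 3 libraries per group. Groups 5 to 11 lie lower in all ONCM libraries, groups 2 to 4 overlap, and group 9 is highest with either agent.

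Inside the clusters the table held 32 further genes, mostly noncoding, and 11 of these were tested. Of the 11, 5 fell (45.5%, against 24.4% of all tested genes), 1 rose (9.09%, against 23.9%) and 5 did not pass, with a median log2 fold change of -0.32. Besides Haglr and Mira, Hoxaas2 (beside Hoxa3) fell by 0.92 on the log2 scale (SE 0.18, adjusted p = 4.12e-04), with 56, 46 and 47 counts with ONCM, against 112, 95 and 91 counts with PBS. Hoxaas2 covers 8.36% of the Hoxa3 exon bases on the opposite strand. The microRNA genes of the clusters (Mir10a, Mir10b, Mir196a-1, Mir196a-2, Mir196b and Mir615) had at most 19 counts in a library, and only Mir196a-1 was tested (-0.18, adjusted p = 0.742). Genes just outside the clusters went both ways (10 tested, 3 rose, 2 fell and 5 did not pass). Their shares of 30% and 20% lay near the 23.9% and 24.4% of all tested genes. Skap2 and Snx10, on the flank of HoxA, rose by 0.52 and 0.45, while Hibadh on the other flank and Lnpk beside HoxD had -0.13 and -0.23.

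TALE homeodomain genes, which include the Pbx and Meis partners of Hox proteins, were split. The 11 TALE genes divided into 3 that rose (27.3%), 3 that fell (27.3%) and 5 that passed in neither direction, with a median of 0.06. Both shares lay near those over all tested genes, of which 23.9% rose and 24.4% fell. Tgif1, a TALE repressor, averaged 81.4 ± 2.27 CPM with ONCM and 64.8 ± 1.41 CPM with PBS (SD, n = 3 each, log2 fold change 0.33, SE 0.04). Pknox2 had 26.4 ± 0.368 CPM with ONCM and 44.2 ± 1.09 CPM with PBS (-0.74, SE 0.04), and Meis2 had 21.8 ± 1.09 CPM with ONCM and 31.3 ± 0.328 CPM with PBS (-0.52, SE 0.05).

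Among silencers of the clusters, the tested genes of Polycomb repressive complex 2 numbered 12, of which 4 rose (33.3%, against 23.9% of all tested genes), 1 fell (8.33%, against 24.4%) and 7 passed in neither direction. The accessory gene Jarid2 rose by 0.63 (SE 0.06) to 25.1 ± 1.4 CPM with ONCM, against 16.2 ± 0.282 CPM with PBS, Phf1 had -0.52, and the histone-binding genes Rbbp7 and Rbbp4 rose by 0.10 and 0.09. Polycomb repressive complex 1 had 6 rises, 7 falls and 7 genes that did not pass of 20 (30% rose and 35% fell, against 23.9% and 24.4% of all tested genes), with Cbx6 and Cbx7, readers of the silencing mark, at -0.31 and -0.51 and Pcgf5 and Kdm2b raised by 0.41 and 0.30. Trithorax-type activators counted 4 rises and 3 falls among 17 (23.5% and 17.6%), near the shares over all tested genes. Kdm6a, an X-linked demethylase that escapes X inactivation, rose by 0.45, in the same libraries in which Xist was high, Men1 rose by 0.23, and Mllt3 and Psip1 had -0.29 and -0.23.

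Retinoic acid genes numbered 6 rises, 7 falls and 5 that did not pass of 18 (33.3% rose and 38.9% fell, against 23.9% and 24.4% of all tested genes). Cyp26a1, which degrades retinoic acid, averaged 1.41 ± 0.184 CPM with ONCM and 0.28 ± 0.122 CPM with PBS (log2 fold change 2.34, SE 0.28, adjusted p = 1.63e-06). Dhrs3, which returns retinal to retinol, and the binding protein gene Crabp2 rose by 0.48 and 0.45. Aldh1a1, a retinoic acid synthase, had -0.61. The other Aldh1a genes went both ways, with 1.26 for Aldh1a2 (SE 0.28, adjusted p = 0.00211) and -0.37 for Aldh1a3 (adjusted p = 0.00546). Of 7 tested upstream axial factors none rose and 1 fell (14.3%), against 23.9% and 24.4% of all tested genes. Cdx1 fell at a level near the floor (0.13 CPM with ONCM and 0.296 CPM with PBS, log2 fold change -1.16, adjusted p = 0.0469). The other 6 did not pass, among them Gdf11 at -0.10 and Gmnn at -0.15.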

How the data were processed

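Total RNA of 6 samples was purified on columns and sequenced, per the labels' protocols. The submitters' processing notes name the build mm10, and which aligner and counter were run, and whether strand was used, is not given in the sources used here. The authors deposited raw read counts, TPM and FPKM per gene in 1 table. Counts were used for the tests, TPM for levels between genes, and the 6 FPKM columns were not used.

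Counts were filtered with filterByExpr, scaled by TMM and tested in edgeR 4.0.16 (R 4.3.3, robust quasi-likelihood F-test, no covariate), with Benjamini-Hochberg adjustment over 20354 genes and 0.05 as threshold. Only genes past that threshold are said to have risen or fallen. The SE is the log2 fold change over the square root of F, and 95% intervals use the fit's degrees of freedom. CPM values are TMM-scaled. Alternatives used DESeq2 1.42.0, limma 3.58.1 on log2(TPM + 1) and log2(TPM + 0.1), other filters and a replicate block.

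Replicates differed by more than sampling noise (chi-square per degree of freedom 2.85 to 7.74 within groups, genes with a mean of at least 20 counts). Coordinates are RefSeq's (GRCm38.p6), matched by Entrez number for all 39 Hox genes, and exon overlaps are from GENCODE M21 (GRCm38). All Hox genes enter the counts and sums, and some genes are not reported here by name. In other lists up to 4 genes with the smallest p-values are named, and Aldh1a2 and Aldh1a3 are given beside Aldh1a1. The members and lists were chosen with earlier results of these data known, and no list was given a test of its own.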

Additional observations from a re-analysis of the deposited data

How the results depend on the processing

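Of the 17 Hox genes called, 10 kept their direction and call under all 13 alternatives (Hoxa7, Hoxa9, Hoxa10, Hoxb5, Hoxb6, Hoxb8, Hoxb9, Hoxd1, Hoxd4 and Hoxd9), and 7 lost their call under at least 1 without changing sign. DESeq2's Wald test called 9 falls and 1 rise, and limma on log2(TPM + 1) and on log2(TPM + 0.1) called 14 falls and 1 rise each. The median log2 fold change of the tested Hox genes was -0.21 and -0.30 on those TPM scales. Over all tested genes the median was -0.04 and -0.06 on the same scales. Over all genes these scales called 3613 rises with 5589 falls and 3579 rises with 5564 falls, against 4869 with 4960 in the count test. Leaving out single libraries gave 10 to 14 falls, 1 to 3 rises and a median of -0.30 to -0.23. The share of paralogue groups 9 to 13 in Hox TPM was higher with ONCM by 0.861 to 1.55 percentage points without single libraries, against 1.21 with all, and by 0.381 in CPM. With Hoxd1 left out of the sum, the difference over all libraries was -0.58 percentage points in TPM and -1.29 in CPM. The cause was not tested. The labels do not pair the replicate numbers, and deviations of same-numbered libraries correlated at -0.05 to 0. With the replicate number as a block 13 Hox genes fell and 2 rose, and the calls of Hoxc8 and Hoxd11 were lost. Depth limits the genes under about 1 TPM, where the posterior ends lie.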
